A study of Mus musculus with 9 samples.

Results

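Immediate early genes were followed here through 10 members chosen by name: Fos, Fosb, Jun, Junb, Egr1, Ier2, Atf3, Dusp1, Klf4 and Klf6. They are 10 of the 22092 mouse genes that the transcript rows of the count files matched. No measured value entered the choice of names, although results of these data were known when the list was drawn up. For each of them the transcript was taken whose CPM (counts scaled to a library of 1000000) had the largest sum over libraries.

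The study used translating ribosome affinity purification (TRAP), in which RNA is recovered from ribosomes that carry a tagged protein, followed by RNA-seq. All mice were 2 months old and carried the Aldh1l1:L10a-eGFP transgene (strain Aldh1L1 JD130), which expresses the ribosomal protein L10a fused to eGFP from the promoter of Aldh1l1, a gene of astrocytes. The 3 whole astrocyte TRAP libraries came from 1 whole brain each, freed of choroid plexus, and the 6 endfeet TRAP libraries from mechanically purified brain vessels pooled from 8 mice each, to which the perivascular ends of astrocyte processes stay attached. The labels give no drug or other stimulus in either group. Vessels were isolated in buffers with cycloheximide, an inhibitor of translation elongation, and only the vessels went through this purification before the ribosomes were recovered, so that compartment and handling cannot be told apart.

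Immediate early genes are transcribed within minutes of a stimulus without new protein synthesis, through factors that are already in the cell, such as SRF with its ternary complex partners and CREB. Many encode transcription factors that then switch on later genes, and their mRNAs are short-lived. In brain they are best known as markers of neuronal activity, and they are also induced by injury, stress, shear of vessel walls and tissue dissociation in astrocytes, endothelial cells and microglia. Fos and Fosb encode subunits that pair with Jun or Junb to form AP-1, Egr1 encodes a zinc finger factor, Atf3 a stress-induced bZIP factor, Klf4 and Klf6 Krüppel-like factors, Ier2 a nuclear regulator, and Dusp1 a phosphatase that switches off MAP kinases.

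Gene totals were 35984144 to 43521208 counts in whole astrocyte TRAP and 2319495 to 13450588 in endfeet TRAP, with endfeet libraries 6 and 1 the smallest. The amount taken as the limit of detection, 3 counts, was 0.0689 to 0.0834 CPM in whole astrocyte TRAP, 0.223 to 0.461 CPM in endfeet libraries 1 to 5 and 1.29 CPM in endfeet library 6, a limit that covers counting error only. This limit used the unscaled gene totals, whereas levels used totals scaled by TMM, a factor for each library. The factor was 0.820 and 0.945 in endfeet libraries 1 and 6, where 3 counts are thus more on the scale of the levels. It was 0.981 to 1.145 in endfeet libraries 2 to 5. The endfeet libraries scattered far more than the others, with a biological coefficient of variation of 85.1% against 11.9%. The 10 astrocyte markers summed to 24700 to 26900 CPM in whole astrocyte TRAP and 9880 to 30000 CPM in endfeet TRAP, and none was at 0. Most of this was Slc1a2 and Aldoc, which averaged 8040 and 10900 CPM in whole astrocyte TRAP and 15300 and 681 CPM in endfeet TRAP. In the test described below 5 of the 10 were lower in endfeet TRAP, 1 was higher and 4 were not called. Endothelial markers (13) summed to 8.16 to 10.7 CPM in whole astrocyte TRAP and 4060 to 5790 CPM in endfeet TRAP, and mural markers (11) to 43.8 to 48.6 CPM and 4130 to 8650 CPM, so that RNA of vascular cells moved with the compartment. Microglia and macrophage markers (12) summed to 22.3 to 26.7 CPM and 237 to 406 CPM, fibroblast markers (8) to 28.0 to 48.4 CPM and 902 to 1550 CPM, and blood cell markers (7) to 1.11 to 2.28 CPM and 33.9 to 111 CPM. The sum of 9 neuronal markers, most of which was Snap25, was 3510 to 4080 CPM in whole astrocyte TRAP and 993 to 2000 CPM in endfeet TRAP. Oligodendrocyte markers (7) summed to 635 to 648 CPM and 240 to 567 CPM. Of all these markers Ly6c1, Hba-a1 and Hba-a2 had 0 counts in whole astrocyte TRAP and Hba-a2 alone in endfeet TRAP.

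Promoters are shown for the 5 members that passed the test between the groups and for Fos, the type example of the family, because the factors that start these genes bind just before the start site. RefSeq start windows (GRCm38.p6) were found for 8 members, all but Egr1 and Ier2. The 250 bases before each start are printed 5′ to 3′ along the gene. Capitals mark the letters TGACG or their reverse complement CGTCA, the core of the cAMP response element (CRE) to which CREB and ATF factors bind, and TGACNTCA, where N is any base. Both were searched on both strands and can overlap, and TGACNTCA was added after the sequences had been read. The Klf4 window was chr4:55532476-55532725 (minus strand), the Atf3 window chr1:191183334-191183583 (minus), the Klf6 window chr13:5861239-5861488 (plus), the Fosb window chr7:19310046-19310295 (minus), the Jun window chr4:95052223-95052472 (minus) and the Fos window chr12:85473640-85473889 (plus).
Klf4: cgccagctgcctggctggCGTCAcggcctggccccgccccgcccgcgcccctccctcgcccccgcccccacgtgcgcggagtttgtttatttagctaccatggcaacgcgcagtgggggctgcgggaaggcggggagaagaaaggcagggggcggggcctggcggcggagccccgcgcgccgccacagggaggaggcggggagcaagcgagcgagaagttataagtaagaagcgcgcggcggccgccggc
Atf3: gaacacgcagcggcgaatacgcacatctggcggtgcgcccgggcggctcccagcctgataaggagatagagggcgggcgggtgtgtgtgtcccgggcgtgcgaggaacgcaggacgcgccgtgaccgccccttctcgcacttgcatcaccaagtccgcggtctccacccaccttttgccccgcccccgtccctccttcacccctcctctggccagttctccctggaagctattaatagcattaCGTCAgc
Klf6: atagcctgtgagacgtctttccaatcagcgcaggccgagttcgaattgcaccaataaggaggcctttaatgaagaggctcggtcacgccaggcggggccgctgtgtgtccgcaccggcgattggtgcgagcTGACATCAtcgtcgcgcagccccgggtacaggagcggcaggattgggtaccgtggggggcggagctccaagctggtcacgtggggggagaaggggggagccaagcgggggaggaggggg
Fosb: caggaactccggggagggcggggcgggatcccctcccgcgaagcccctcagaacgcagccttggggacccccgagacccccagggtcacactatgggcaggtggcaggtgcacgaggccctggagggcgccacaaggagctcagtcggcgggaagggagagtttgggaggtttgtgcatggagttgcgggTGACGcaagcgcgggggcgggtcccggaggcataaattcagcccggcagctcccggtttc
Jun: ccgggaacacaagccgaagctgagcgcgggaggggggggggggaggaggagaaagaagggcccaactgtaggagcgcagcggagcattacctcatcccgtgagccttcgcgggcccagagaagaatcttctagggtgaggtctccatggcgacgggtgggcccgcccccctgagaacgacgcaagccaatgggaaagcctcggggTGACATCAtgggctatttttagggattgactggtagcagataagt
Fos: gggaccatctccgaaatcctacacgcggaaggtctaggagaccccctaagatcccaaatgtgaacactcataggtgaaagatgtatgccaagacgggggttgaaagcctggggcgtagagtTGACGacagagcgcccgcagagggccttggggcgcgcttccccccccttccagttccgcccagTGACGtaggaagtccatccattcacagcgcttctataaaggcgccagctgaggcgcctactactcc

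The CRE core stood in 6 of the 8 windows, against 17.8% of all 32851 RefSeq windows of the same length. It began at position -232 in Klf4, -7 in Atf3, -60 in Fosb, -106 in Junb, and at -129 and -66 in Fos, counted so that -1 is the last base before the RefSeq start. That start lay 0 (Fos, Jun) to 30 bases (Junb) from the start of the transcript counted here. For Atf3 the distance was 7 bases, so that its core is the beginning of the counted transcript. Dusp1 held 3 cores, at -191, -143 and -140, of which the last pair overlap in the full palindrome TGACGTCA, a sequence present in 1.55% of all windows. Jun and Klf6 had no core but each had TGACATCA, at -45 and -119, and TGACNTCA stood in 7.49% of all windows and in 3 of the 8. The core was found in members higher in endfeet (Klf4, Atf3) and in a member lower there (Fosb), and TGACATCA likewise in Klf6 and Jun. GC boxes (GGGCGG, both strands) stood in 7 of the 8, all but Junb, against 32.7% of windows. The TATA letters TATAAA, searched on the gene's strand, occurred in Fos alone, at -33, against 7.59%. The AP-1 letters TGANTCA were in none of the 8, against 6.75%, and the CArG box, the SRF site, in none, against 1.47%, which says only that these letters are not in this window. All 8 windows had a higher GC content, 58.4% to 74.0%, than the median window with 52.4%. The shares over all windows were not matched for GC content, so that they are no like background for the CRE core and the GC box.

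All 10 chosen transcripts had 5 exons or fewer, against 30.7% of genes tested, and Jun, Junb and Ier2 had a single exon, against 3.36% of genes. The median length of the 10 transcripts was 2671 bases, beside 3119 over genes tested, and Egr1, Klf6, Fosb and Jun were longer than the latter. Pentamers ATTTA in the 3′ untranslated region, letters of AU-rich elements that shorten the life of an mRNA, numbered 3 or more in 5 members (Fos, Jun, Atf3, Dusp1, Klf6), against 37.1% of genes tested. The stretches shown are the 30 bases with the most pentamers (capitals) in the 2 members with the densest regions, taken from the GENCODE M21 coding transcripts.
Fos: aacgtttttattgtgttttcaATTTATTTA
Dusp1: ggctcatgggagctggtccttATTTATTTA

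In both of these stretches the pentamers overlap by a base. Dusp1 had 5.80 pentamers per kilobase and Fos 4.91, against a median of 1.29 over genes, whereas Ier2 had none in 755 bases. The range among members was therefore wide, and Klf4 (1.02 per kilobase) and Fosb (0.466) were below the median gene.

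Members were first ranked within each group by CPM per kilobase of transcript, the scale on which levels of different genes can be compared. In whole astrocyte TRAP the order was Dusp1 (32.1 ± 4.26 CPM per kilobase; SD, n = 3), Klf6 (26.9 ± 1.62), Egr1 (17.6 ± 1.31), Jun (15.4 ± 1.55), Fos (8.08 ± 1.96), Fosb (2.97 ± 0.514), Ier2 (1.55 ± 0.323), Junb (1.22 ± 0.134), Klf4 (0.446 ± 0.132) and Atf3 (0.225 ± 0.115). Egr1 and Jun, Ier2 and Junb, and Klf4 and Atf3 had ranges that overlapped, and the other neighbours were apart. In endfeet TRAP the order was Klf6 (56.6 ± 22.0; SD, n = 6), Dusp1 (34.1 ± 13.3), Egr1 (15.3 ± 6.18), Klf4 (9.08 ± 6.47), Jun (7.00 ± 1.96), Atf3 (6.61 ± 9.23), Fos (4.65 ± 3.81), Ier2 (4.16 ± 4.25), Junb (1.46 ± 1.14) and Fosb (0.190 ± 0.304). There every pair of neighbours overlapped, although Egr1 was above Klf4, and Junb above Fosb, in 6 of 6 libraries. The transcript named for Dusp1 is annotated as a retained intron form, and the coding Dusp1 transcript carried 96.5% to 100% as many reads in each library. Against all genes tested, Klf6 and Dusp1 stood at the 94.1 and 88.0 percentile of the level per kilobase in endfeet TRAP and at the 81.4 and 84.1 percentile in whole astrocyte TRAP. Klf4 stood at the 12 percentile in whole astrocyte TRAP and at the 55.6 percentile in endfeet TRAP, and Fosb at the 35.6 and 1.82 percentile.

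**Figure D1:**
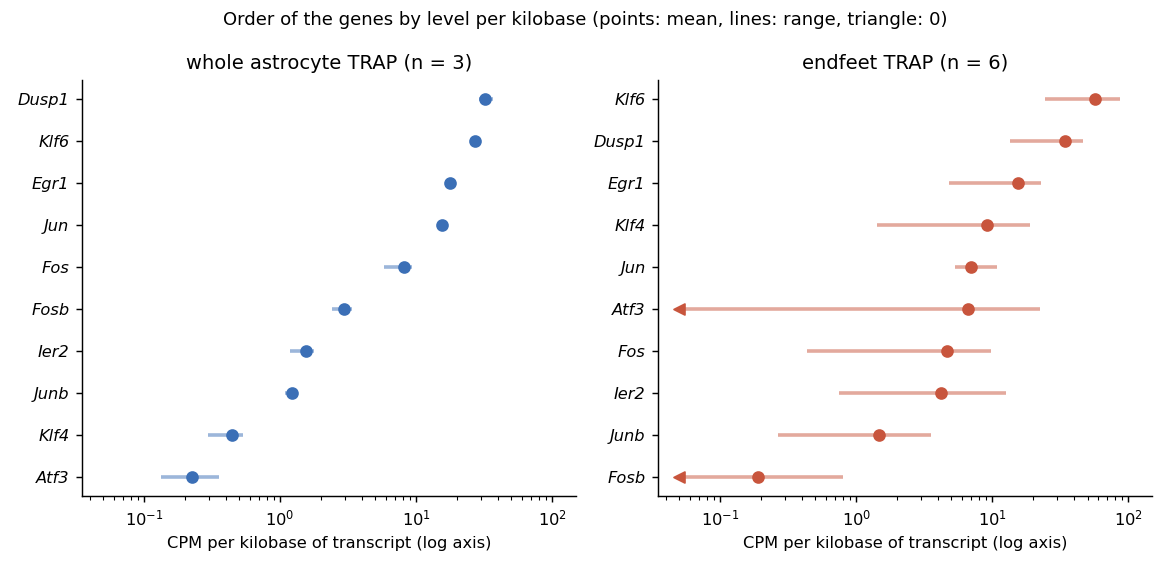
Level of each gene in CPM per kilobase of transcript on a log axis, for whole astrocyte TRAP (left, n = 3) and endfeet TRAP (right, n = 6), with points at the mean, lines over the range of the libraries and a triangle where a library was at 0. Klf6 and Dusp1 led in both groups, Klf4 moved from place 9 to place 4, and Fosb from place 6 to place 10.

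The question asked of each gene was whether ribosome-bound mRNA attached to vessels differed from that of whole astrocytes. All 10 members passed the filter on low counts and were among the 14427 genes fitted with edgeR (quasi-likelihood F-test), whose p-values were adjusted together by the method of Benjamini and Hochberg. Klf4, Atf3 and Klf6 were higher in endfeet TRAP, Fosb and Jun were lower, and Fos, Junb, Egr1, Ier2 and Dusp1 did not pass the threshold of 0.05. The 3 higher members of 10 compare with 20.7% of all genes tested and the 2 lower members with 13.9%, and such shares of 10 genes are near the background. The median log2 fold change of the members was 0.155, beside 0.097 over all genes tested. In bulk libraries, fewer cells of a type and less RNA per cell cannot be told apart.

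Every endfeet library lay above every whole astrocyte library for 1 member (Klf4), against 18.9% of genes tested, and below for 2 (Fosb, Jun), against 23.8%. The other 7 members had at least 1 endfeet library inside the whole astrocyte range or on its other side.

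**Figure D2:**
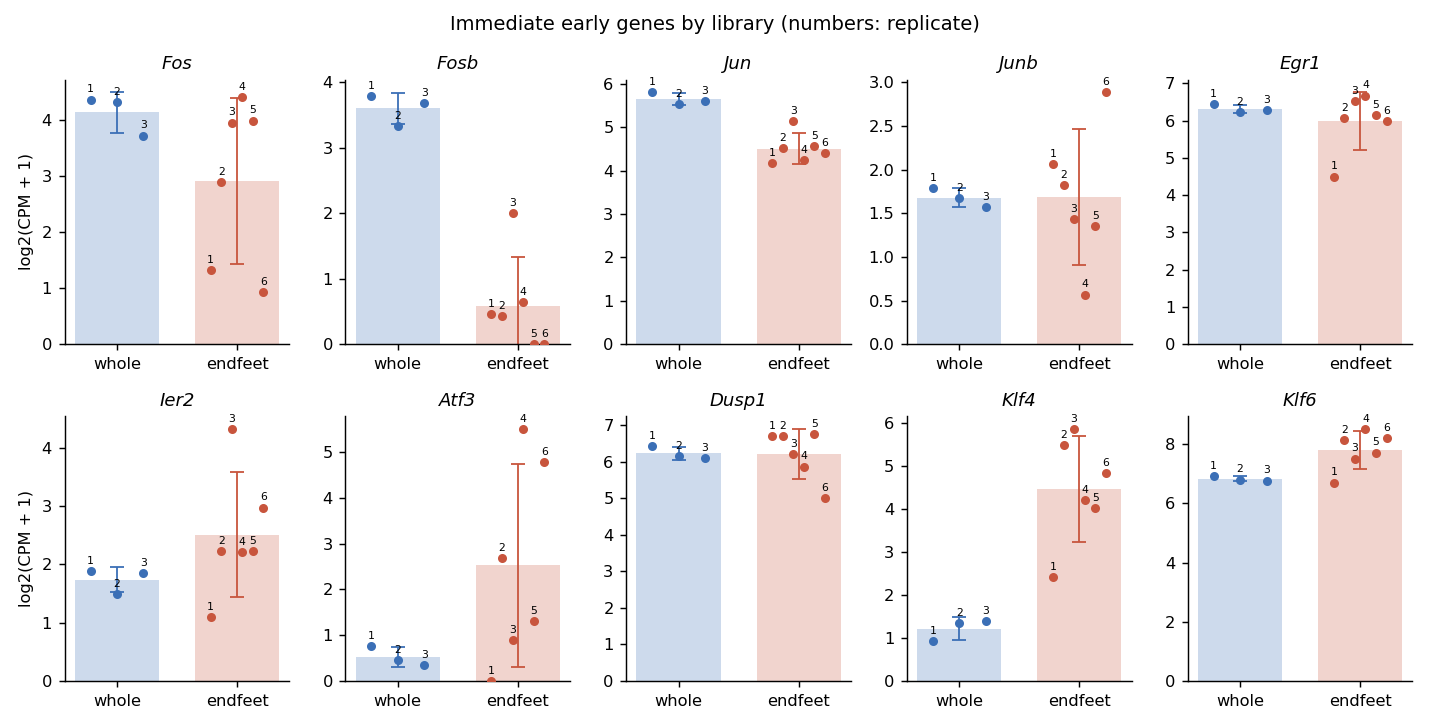
Log2(CPM + 1) of the 10 genes in each library, with whole astrocyte TRAP in blue (n = 3) and endfeet TRAP in red (n = 6), bars at the mean, error bars of 1 SD and the replicate number above each point. Each vertical axis starts at 0 and has its own scale, and Klf4, Fosb and Jun are the genes whose groups do not overlap.

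Klf4, a Krüppel-like factor of endothelial and smooth muscle cells among others, was the member with the clearest difference. Its level (ENSMUSG00000003032, chr4:55527143-55532466 on mm10, minus strand, 5 exons) was 0.892, 1.54 and 1.62 CPM in whole astrocyte libraries 1 to 3, and 4.32, 43.6, 57.0, 17.5, 15.2 and 27.4 CPM in endfeet libraries 1 to 6. All endfeet libraries were above all others, with library 1 close to the whole astrocyte range and libraries 2 and 3 the highest. The log2 fold change was 4.34 (SE 0.887, 20.3-fold; edgeR adjusted p = 0.00213). Klf4 was called in each of the 21 other settings in which it was tested, with log2 fold changes of 3.75 to 4.70.

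The endothelial and mural marker sums moved with the level of Klf4 in part. In endfeet libraries 1 to 6 the endothelial markers summed to 4063, 4902, 5791, 4746, 4845 and 4485 CPM and the mural markers to 4129, 8007, 6848, 8650, 6777 and 6783 CPM. The library with the lowest Klf4 also had the lowest sum of both lists, and the library with the highest Klf4 had the highest endothelial sum. The highest mural sum was in library 4, where Klf4 was lower than in libraries 2, 3 and 6. Their part in the result was not tested.

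Atf3 (ENSMUSG00000026628, chr1:191170296-191183340, minus strand, 4 exons), a factor that is induced by injury and stress, had the largest fitted difference of the 10 and the widest scatter. Its level was 0.703, 0.371 and 0.263 CPM in whole astrocyte TRAP and 0, 5.40, 0.854, 44.4, 1.47 and 26.5 CPM in endfeet libraries 1 to 6. Libraries 4 and 6 were far above the rest, but had no read in the 517 bases of a short transcript that hold most of the coding sequence. Library 1 had no read at all, which allows about 0.461 CPM by its unscaled total. Its log2 fold change of 4.86 (SE 1.76; adjusted p = 0.0480) gave a call that stood next to the threshold. Without endfeet library 4 the log2 fold change was 3.76 and the adjusted p 0.104, without endfeet libraries 2 or 6 the adjusted p was 0.0602 and 0.0640, and without any 1 of the whole astrocyte libraries it was 0.116 to 0.157. Besides its replicate number each deposited library carries a number of unknown meaning that splits the libraries into 2 series. Endfeet libraries 1 to 3 form 1 series, and endfeet libraries 4 to 6 with all whole astrocyte libraries form the other. With endfeet libraries 4 to 6 alone, which share the series of the whole astrocyte libraries, the log2 fold change was 5.63 (adjusted p = 0.0115). With libraries 1 to 3 of both groups, whose series differ, it was 2.22 (adjusted p = 0.233). With limma voom on all libraries it was 2.81 (adjusted p = 0.0230).

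Klf6 (ENSMUSG00000000078, chr13:5861482-5870394, plus strand, 4 exons), a Krüppel-like factor with broad expression, was abundant in both groups. It had 121, 111 and 108 CPM in whole astrocyte TRAP and 104, 280, 182, 365, 210 and 293 CPM in endfeet libraries 1 to 6. Endfeet library 1 fell just below the whole astrocyte range and the other 5 lay above it. Endfeet TRAP was higher by a log2 fold change of 1.07 (SE 0.359, 2.10-fold; adjusted p = 0.0342). Without endfeet libraries 4 or 5 the adjusted p was 0.0983 and 0.0652 and without any 1 of the whole astrocyte libraries 0.0899 to 0.127, whereas without endfeet library 1 it was 0.00358. With libraries 1 to 3 of both groups, whose series differ, the log2 fold change was 0.72 (adjusted p = 0.163). With endfeet libraries 4 to 6 alone it was 1.22 (adjusted p = 0.00806). Endfeet library 4, with the highest level of Klf6, also had the highest mural sum, and library 1 the lowest of both, a part in the result that was not tested.

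Fosb (ENSMUSG00000003545, chr7:19302696-19310051, minus strand, 4 exons), the AP-1 subunit whose stable splice form accumulates in neurons with repeated stimulation, was the member with the largest fall. It had 12.8, 9.08 and 11.8 CPM in whole astrocyte TRAP and 0.375, 0.345, 3.02, 0.563, 0 and 0 CPM in endfeet libraries 1 to 6. No endfeet library reached the whole astrocyte range, and 46 of the 58 endfeet reads were in library 3. The 0 counts in libraries 5 and 6 allow about 0.223 and 1.29 CPM by unscaled totals, still far below every whole astrocyte library. Libraries 1 and 2 held 2 and 3 reads, likewise at or below the limit of detection, so that the size of the fall rests on few reads. The fitted log2 difference was -3.85 (SE 1.16; edgeR adjusted p = 0.0212). This difference ranged from -5.67 to -3.10 over the 20 other settings, was -5.31 without endfeet library 3, and without any 1 of the whole astrocyte libraries the adjusted p was 0.0586 to 0.0808.

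Jun (ENSMUSG00000052684, chr4:95049034-95052222, minus strand, 1 exon), the central AP-1 partner, had 54.8, 45.4 and 47.4 CPM in whole astrocyte TRAP and 17.1, 22.0, 34.3, 17.9, 22.7 and 20.1 CPM in endfeet libraries 1 to 6. The groups did not overlap, and among the endfeet libraries Jun was the least variable member, with a 2.01-fold range. Its log2 fold change was -1.14 (SE 0.388, 2.20-fold lower; adjusted p = 0.0376). Without endfeet library 2 the adjusted p was 0.0718, and without any 1 of the whole astrocyte libraries it was 0.117 to 0.189, with log2 fold changes of -1.20 to -1.02. Jun shares 232 bases with the antisense RNA Junos, which was not analysed here, and reads of the 2 genes cannot be told apart without strand.

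The neuronal marker sum was lower in endfeet TRAP, as were Fosb and Jun, with 4 of the 9 neuronal markers called lower, none higher, 5 not called and a median log2 fold change of -1.44. Snap25, a presynaptic SNARE protein and the most abundant of them in endfeet TRAP, went from 2890 ± 303 CPM (SD, n = 3) to 799 ± 306 CPM (SD, n = 6), and Tubb3, a neuronal tubulin and the least abundant, from 17.2 ± 1.53 to 2.14 ± 1.76 CPM. Among the markers not called, Slc17a7, the vesicular glutamate transporter, had 26.8 ± 6.03 and 48.8 ± 29.2 CPM and Stmn2, a regulator of microtubules, 87.4 ± 6.50 and 102 ± 49.6 CPM. The astrocyte markers included 5 lower genes of 10, 1 higher gene and a median of -0.98. Of all genes tested 13.9% were called lower and 20.7% higher. The part of neuronal or astrocyte RNA in the fall of Fosb and Jun was not tested.

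Fos (ENSMUSG00000021250, chr12:85473890-85477273, plus strand, 4 exons), the best known of these genes, did not pass the test. It had 19.7, 19.1 and 12.3 CPM in whole astrocyte TRAP and 1.50, 6.44, 14.6, 20.4, 15.0 and 0.914 CPM in endfeet libraries 1 to 6. Libraries 3, 4 and 5 lay in or above the whole astrocyte range and libraries 1, 2 and 6 below it. The log2 fold change was -0.78 (SE 0.838; adjusted p = 0.502). In library 6 Fos rested on 2 reads and in library 1 on 8.

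Egr1 (ENSMUSG00000038418, chromosome 18, plus strand, 2 exons), a zinc finger factor induced by activity and growth factors, had 85.6, 74.5 and 76.9 CPM in whole astrocyte TRAP and 21.6, 65.8, 91.1, 101, 70.5 and 62.6 CPM in endfeet libraries 1 to 6. Apart from library 1 the endfeet values bracketed those of whole astrocytes. Its log2 fold change was -0.20 (SE 0.408; adjusted p = 0.742). A shorter Egr1 transcript with 3036 of its 4484 bases carried 99.9% to 100% as many reads in every library, so that its level per kilobase depends on the transcript taken.

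Dusp1 (ENSMUSG00000024190, chr17:26505591-26508474, minus strand, 3 exons), the MAP kinase phosphatase, had 85.4, 70.2 and 66.9 CPM in whole astrocyte TRAP and 103, 103, 72.7, 57.2, 107 and 31.1 CPM in endfeet libraries 1 to 6. The groups overlapped, with libraries 1, 2 and 5 above and libraries 4 and 6 below the whole astrocyte range. The log2 fold change was 0.09 (SE 0.389; adjusted p = 0.874), and its sign turned in 4 of 21 other settings. Library 5 was high for both Dusp1 and Fos (15.0 CPM), whereas library 1, among the 3 highest for Dusp1, had 1.50 CPM of Fos.

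Ier2 (ENSMUSG00000053560, chr8:84661331-84662852, minus strand, 1 exon), a nuclear regulator of the early response, had 2.70, 1.80 and 2.59 CPM in whole astrocyte TRAP and 1.13, 3.68, 19.0, 3.62, 3.69 and 6.85 CPM in endfeet libraries 1 to 6. Endfeet library 1 was below and the other 5 above the whole astrocyte range, with library 3 the highest. The fitted log2 difference was 1.42 (SE 0.967; edgeR adjusted p = 0.276), and 0.65 without endfeet library 3.

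Junb (ENSMUSG00000052837, chr8:84976910-84978718, minus strand, 1 exon), the AP-1 subunit that can oppose Jun, had 2.46, 2.20 and 1.98 CPM in whole astrocyte TRAP and 3.19, 2.53, 1.71, 0.483, 1.55 and 6.40 CPM in endfeet libraries 1 to 6. Endfeet values lay on both sides of the whole astrocyte range, and all rested on 6 to 26 reads. The log2 fold change was 0.22 (SE 0.931; adjusted p = 0.878), and its sign turned in 3 of 20 other settings.

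**Figure D3:**
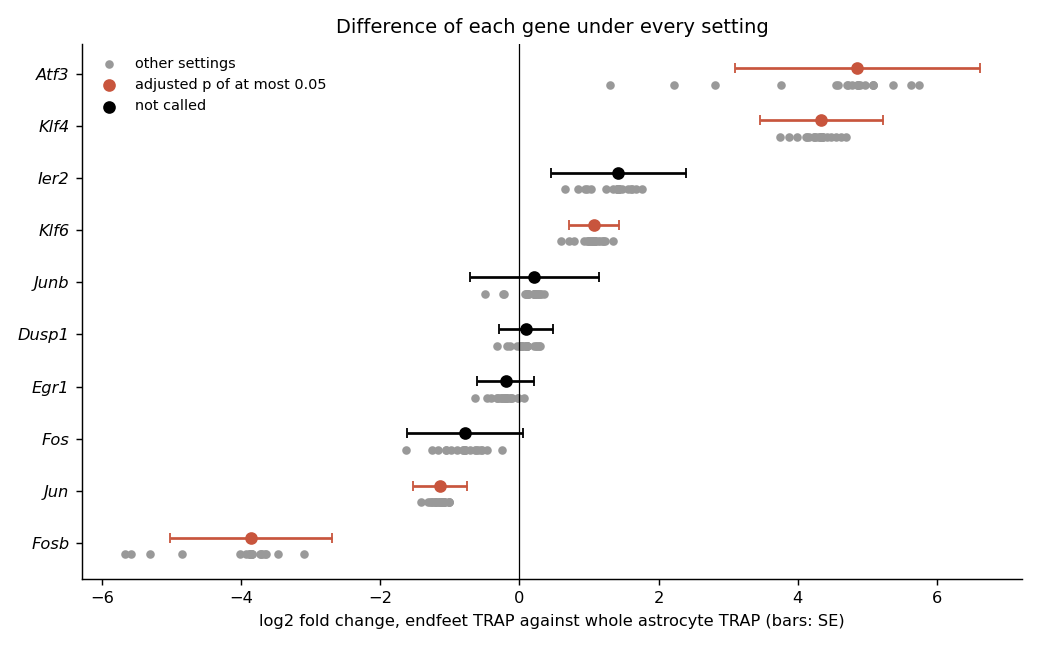
Log2 fold change of each gene in endfeet against whole astrocyte TRAP, with the main value and its SE (red where the adjusted p was at most 0.05, black otherwise) and grey points for every other setting below it. Klf4 stayed between 3.75 and 4.70, Fosb and Jun stayed below 0, and the grey points of Junb, Dusp1 and Egr1 fall on both sides of 0.

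Library 1 was the lowest of the 6 for 6 of the 10 members, beside 26.8% of genes tested, and library 6 for 2, beside 28.0%. Library 3 was the highest for 4 members (Fosb, Jun, Ier2, Klf4), beside 13.7% of genes, and library 4 for another 4 (Fos, Egr1, Atf3, Klf6), beside 14.6%. The SD of log2(CPM + 1) over endfeet libraries ran from 0.346 for Jun and 0.643 for Klf6 to 1.48 for Fos and 2.21 for Atf3. The median SD of the members was 0.778, beside 0.889 for all genes tested, and in whole astrocyte TRAP it was 0.203, beside 0.121.

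Averaged over the 10 members, log2(CPM + 1) stood -0.98, 0.17, 0.47, 0.37, -0.11 and 0.08 from its endfeet mean in libraries 1 to 6. Egr1 was the member nearest to this mean profile, with a root mean square difference of 0.280, and Atf3 the farthest with 1.81. Of 7602 other genes compared over the 6 libraries, those most like it were Thap12 (root mean square difference 0.123), Plce1 (0.162), Zfp706 (0.166), Rgl1 (0.167) and Mier3 (0.179), beside a median of 0.979. All 5 were lowest in library 1, at -1.24 to -1.01, which follows from their choice by likeness to this profile.

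Within the endfeet group, libraries 1 to 3 (series A) were compared with libraries 4 to 6 (series B). The series follow a number that the deposited libraries carry besides their replicate number, and no source says what it stands for. All 3 whole astrocyte libraries were of series B. Between them and endfeet libraries 1 to 3 alone, group and series therefore cannot be told apart. No gene was called by edgeR (0 of 13483, 0.0%), 622 (4.61%) had an unadjusted p under 0.05, and DESeq2 called 32 genes. Among the 9 members tested the largest difference was that of Atf3, with a mean of 2.09 CPM in series A and 24.1 CPM in series B (log2 fold change, A against B, -3.52, SE 1.55; adjusted p = 0.964). Klf6 averaged 189 and 289 CPM and Klf4 35.0 and 20.0 CPM, with adjusted p-values of 0.964 and 0.986. Fosb, with 1.25 and 0.188 CPM, did not pass the filter in this comparison.

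Reads were counted on every transcript that they overlapped, so that the shorter annotated transcripts of a member show where along the gene its reads lay. A short Fos transcript covers exons 2 and 3 and the start of exon 4, 729 of the 2108 bases of full-length Fos (34.6%), plus 105 bases of its own. In whole astrocyte TRAP it carried 163, 167 and 172 reads, beside 729, 722 and 559 on full-length Fos. In endfeet libraries 2, 3, 4 and 5 it carried 50, 0, 85 and 39 reads beside 56, 222, 254 and 203. The 222 reads of library 3 therefore all lay outside those 729 bases, whereas the short transcript held nearly as many reads as full-length Fos in library 2. The share was 22.4% to 30.8% in whole astrocyte TRAP and 0% to 89.3% in endfeet TRAP.

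Atf3 and Dusp1 were uneven in some endfeet libraries as well. A short Atf3 transcript that lies wholly inside 517 of the 1984 bases (26.1%) held 3, 1 and 2 of the 26, 14 and 12 reads in whole astrocyte TRAP and 8 of 47 in endfeet library 2, but 0 of 552 in endfeet library 4 and 0 of 58 in library 6. The 2 libraries with the highest Atf3 thus had no read in those bases, which hold most of the coding sequence of 543 bases. The Atf3 reads of these libraries therefore lay outside most of it. The paper required high exon coverage of its TRAP mRNAs, a filter that was not applied here. A short Dusp1 transcript with 501 bases in common and 338 of its own carried 47.6% to 48.7% as many reads as the long one in whole astrocyte TRAP, 74.2% in endfeet library 1 and 14.7% in library 6. In Klf4 a short transcript inside 859 of 3029 bases (28.4%) held 6.90% to 9.09% of the reads in whole astrocyte TRAP and 0% to 15.2% in endfeet TRAP, the 0 being of 23 reads in library 1.

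**Figure D4:**
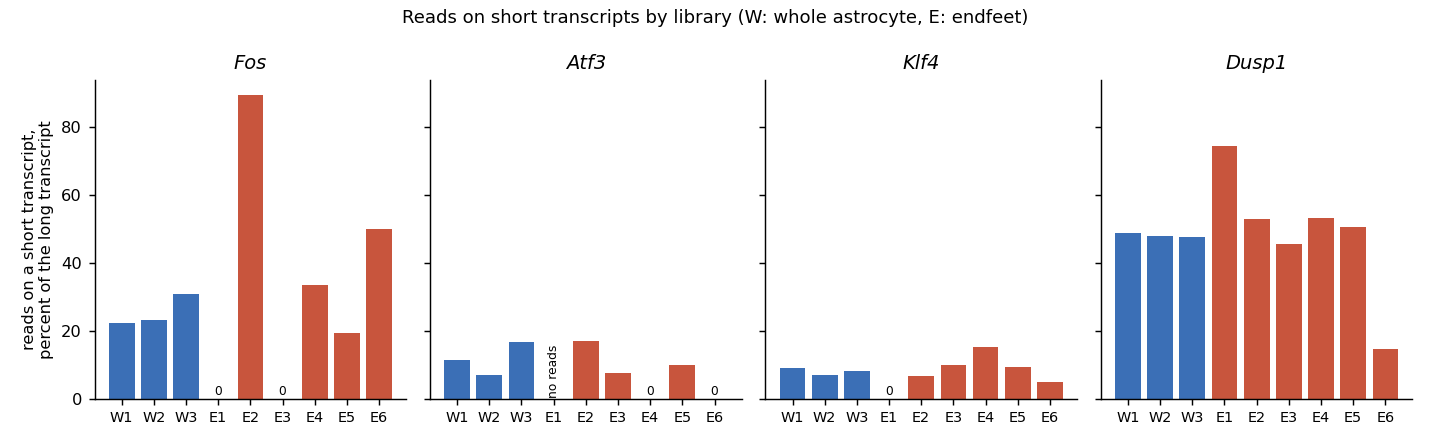
Reads counted on a short transcript as a percentage of those on the long transcript of Fos, Atf3, Klf4 and Dusp1, by library (W1 to W3 whole astrocyte TRAP, E1 to E6 endfeet TRAP). The whole astrocyte bars stay between 22.4% and 30.8% for Fos and between 47.6% and 48.7% for Dusp1, while the endfeet bars run from 0% to 89.3% and from 14.7% to 74.2%.

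A list of 58 other immediate early genes was read beside the members. Of 55 tested, 12 were higher in endfeet TRAP (21.8%), 13 lower (23.6%) and 30 not called, with a median log2 fold change of -0.15. These shares stand beside the 20.7% and 13.9% of all genes tested.

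Of the other AP-1 subunits none was called: Fosl2 had 40.9 ± 3.10 CPM (SD, n = 3) in whole astrocyte TRAP and 76.2 ± 32.1 CPM (SD, n = 6) in endfeet TRAP (adjusted p = 0.113), Fosl1 0.941 ± 0.173 and 1.79 ± 2.10 CPM (0.596), and Jund 12.3 ± 0.338 and 7.48 ± 6.75 CPM (0.503). Of the EGR family, Egr3 fell from 14.1 ± 2.96 to 0.729 ± 0.870 CPM (log2 fold change -4.18, SE 1.04; adjusted p = 0.00727) and was below the whole astrocyte range in 6 of 6 endfeet libraries. These ran from 0 to 2.3 CPM, about the limit of detection, so that the size of this fall rests on few reads. Egr2 had 7.27 ± 1.69 and 12.1 ± 11.6 CPM (adjusted p = 0.638), and Egr4 3.11 ± 1.11 and 1.49 ± 1.71 CPM (0.596).

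The Krüppel-like factors differed among themselves. Klf2, the shear-responsive factor of endothelium, went from 1.14 ± 0.644 to 45.5 ± 29.2 CPM (log2 fold change 5.31, SE 0.858; adjusted p = 0.000397), higher in 6 of 6 libraries, like Klf4. Klf9, a glucocorticoid-responsive factor, fell from 406 ± 63.3 to 84.9 ± 21.1 CPM (log2 fold change -2.26, SE 0.268; adjusted p = 3.56e-05). Klf10, which responds to TGF-beta, had 23.5 ± 3.09 and 61.8 ± 42.0 CPM (adjusted p = 0.0732). In the NR4A family of orphan nuclear receptors Nr4a3 fell from 38.8 ± 7.59 to 9.26 ± 8.01 CPM (log2 fold change -2.09, SE 0.697; adjusted p = 0.0339), while Nr4a1, with 26.5 ± 1.38 and 13.0 ± 8.03 CPM (adjusted p = 0.255), and Nr4a2, with 23.8 ± 2.11 and 35.2 ± 22.1 CPM (0.589), were not called.

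Among the other genes with the largest rises, Ptgs2, the inducible cyclooxygenase, rose from 4.79 ± 1.32 to 64.8 ± 32.6 CPM (log2 fold change 3.76, SE 0.615), Ccn2, a matricellular protein, from 4.26 ± 0.996 to 58.1 ± 22.3 CPM (3.77, SE 0.579), and Btg2, an antiproliferative factor, from 15.9 ± 2.06 to 269 ± 244 CPM (4.08, SE 0.638). Socs3, the inhibitor of cytokine signalling, rose by a log2 fold change of 4.24 (SE 1.22), the kinase Pim1 by 3.88 (SE 1.18) and Ier3 by 3.30 (SE 0.626). Adjusted p-values of these 6 by edgeR were 0.000268 to 0.0218, and each was above all whole astrocyte libraries in 6 of 6. Cxcl1, a neutrophil chemokine, was also called (adjusted p = 0.0112), with 2.83 ± 4.38 CPM in endfeet TRAP and 0.00882 CPM in whole astrocyte TRAP, below the limit of detection there, so that its fold is not given. Klf2 and Klf4 were higher in the group whose endothelial and mural marker sums were higher, and the part of those cells in these results was not tested.

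Among the other genes with the largest falls, Gem, a small GTPase, fell from 47.9 ± 6.20 to 0.539 ± 0.457 CPM (log2 fold change -6.46, SE 0.791), and the MAP kinase phosphatases Dusp4, from 6.54 ± 0.637 to 0.161 ± 0.268 CPM, and Dusp5, from 3.16 ± 0.206 to 0.199 ± 0.414 CPM, fell while their relative Dusp1 was not called. The endfeet means of Dusp4 and Dusp5 lay at or below the limit of detection there, so that their folds are not given. Gem ran from 0 to 1.18 CPM over the endfeet libraries, about the limit of detection, so that the size of its fall rests on few reads. Gadd45g, a growth arrest gene, fell by 2.91 on the log2 scale (SE 0.445), the pseudokinase gene Trib1 by 2.40 (SE 0.361) and the clock gene Per1 by 2.16 (SE 0.375). These 6 had edgeR adjusted p-values of 4.43e-05 to 0.0394 and in 6 of 6 endfeet libraries they lay under the whole astrocyte range.

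**Figure D5:**
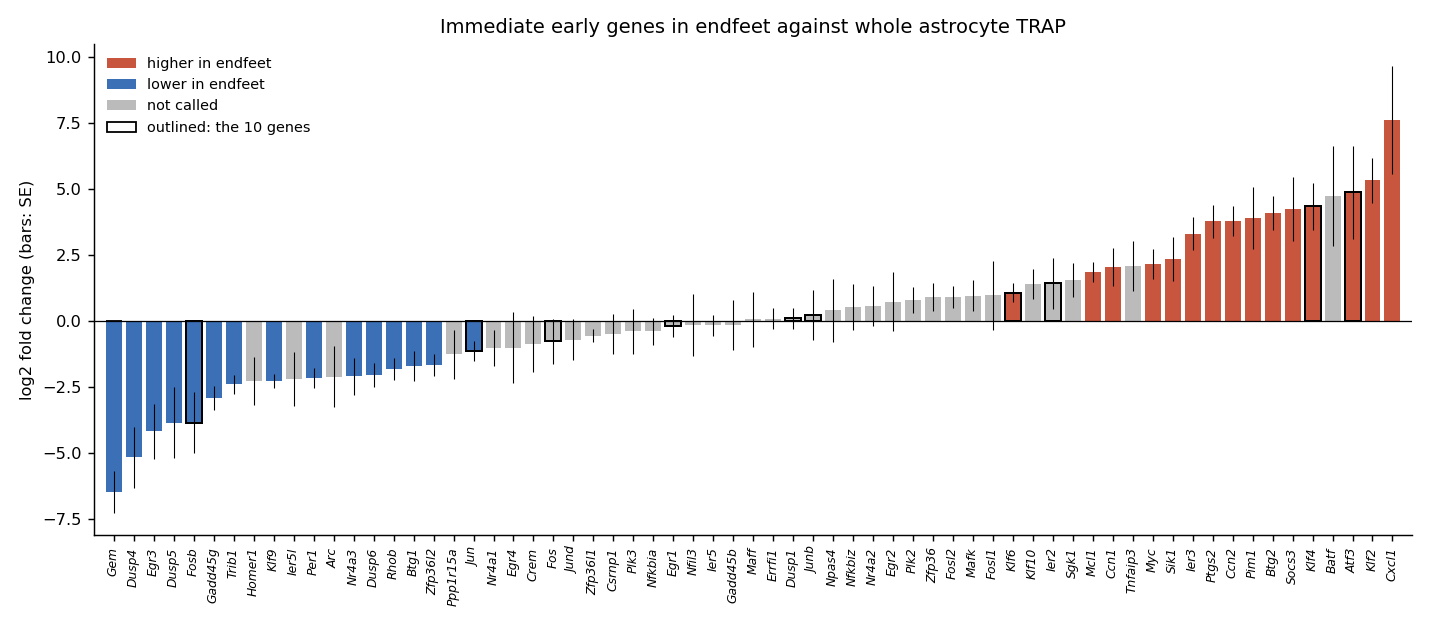
Log2 fold change, endfeet against whole astrocyte TRAP, of the 10 genes (outlined) and 55 other immediate early genes, ordered by value, with SE as vertical lines and colours for genes called higher (red), called lower (blue) or not called (grey) by edgeR. The list spreads from Gem at -6.46 to Cxcl1, and the fitted values of Cxcl1, Dusp4 and Dusp5 rest on a level at or below the limit of detection in a group. Several other genes, Gem, Egr3 and Fosb among them, were at 0 in at least 1 endfeet library.

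Genes for the factors and kinases that act before the immediate early genes were measured too. Of 23 such genes 5 were higher in endfeet TRAP, 5 lower and 13 not called, with a median log2 fold change of -0.40. The shares, 21.7% in each direction, stand beside 20.7% and 13.9% of all genes tested, so that the higher share is at the background. The higher ones were the ternary complex factors Elk4, from 34.1 ± 0.502 to 1080 ± 670 CPM (log2 fold change 4.99, SE 0.508), and Elk3, from 9.29 ± 0.606 to 164 ± 75.6 CPM (4.15, SE 0.519), the SRF cofactor Mrtfb (1.70, SE 0.243), the ribosomal S6 kinase Rps6ka3 (1.59, SE 0.380) and the CRE-binding factor Atf1 (1.31, SE 0.468). Their edgeR adjusted p-values were 9.98e-06 to 0.0455.

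Among the lower genes were 4 kinases of the MAP kinase cascades. Mapk10, the JNK isoform of neurons, fell from 481 ± 8.32 to 87.7 ± 25.8 CPM (log2 fold change -2.45, SE 0.275), Map2k1, which encodes MEK1, by 1.89 on the log2 scale (SE 0.345), Map2k2 (MEK2) by 1.19 (SE 0.430) and Mapk9 (JNK2) by 0.86 (SE 0.237). Adjusted p-values of these 4 were 2.3e-05 to 0.0471, and each was below the whole astrocyte range in 6 of 6 endfeet libraries. Srf itself had 15.1 ± 2.61 and 31.7 ± 13.2 CPM (adjusted p = 0.138) and Creb1 114 ± 3.30 and 175 ± 45.6 CPM (0.109), neither of them called.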

How the data were processed

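Per the labels and the study's methods, the authors amplified polysomal RNA (10 ng), sequenced 50-base reads, processed them with Eoulsan, mapped them to mm10 by Bowtie, kept those with a single alignment and counted them with HTSeq 0.5.3 on Ensembl annotation. The deposited values are raw counts per transcript, without normalization, and strand is not given in the sources used here. Of 75466 transcripts 73164 matched GENCODE M21 (GRCm38), in 22092 genes. The members and lists were chosen with earlier results of these data known.

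Counts were tested with edgeR 4.0.16 (filterByExpr, TMM, glmQLFit, glmQLFTest) over all 9 libraries, at a Benjamini-Hochberg adjusted p of 0.05. CPM used the TMM-scaled totals, and the SE was derived from the log2 fold change and the F statistic (size of the change over the root of F). DESeq2 1.42.0 and limma 3.58.1 served as alternatives. Alternatives also covered filters, size factors, summed transcripts, the library series, the replicate block and leaving out each library. The text names the 10 members, of the 58 other early genes the 8 called with the largest change in each direction and all AP-1, EGR, KLF and NR4A genes, the called upstream genes except 1 that is not reported here, and the 5 genes nearest in profile (SD at least that of the members' mean profile, mean of at least 10 CPM in endfeet TRAP). Srf, Creb1, Slc17a7, Stmn2 and the markers at 0 were added after their values were seen. Same-numbered libraries of the groups correlated at -0.036, 0.017 and 0.039 in their deviations, so the numbers were not taken as pairs.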

Additional observations from a re-analysis of the deposited data

Results flagged for a closer look

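Of the 10 genes, 2 had an endfeet library that stood apart from the other 5 on the log2(CPM + 1) scale, by the gap to its neighbour divided by the range of the 6 libraries, above Dixon's critical value for 6. Fosb in endfeet library 3 had a ratio of 0.679, with 3.02 CPM against 0 to 0.563 CPM in the others. Egr1 in endfeet library 1 had a ratio of 0.685, with 21.6 CPM against 62.6 to 101 CPM in the others. Chance flags about 1 in 20 groups.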

How the results depend on the processing

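Klf4 was called in each of 21 other settings, Fosb in 17 of 20, Jun in 13 of 21, Klf6 in 12 of 21 and Atf3 in 10 of 20, and no called member changed sign. The count of higher members went from 3 to 1 without a filter on low counts and with counts summed over transcripts. It was also 1 in libraries 1 to 3 of both groups, which differ in series as well, with the replicate block and without it. Atf3 had a log2 fold change of 1.30 with the block. The count of lower members went from 2 to 1 with at least 10 counts in every library, where 5 members could be tested, with summed counts, with the series as covariate and in libraries 1 to 3 (1 with the block, 1 without). Leaving out each library in turn gave 1 to 3 higher and 0 to 2 lower members and, of the other early genes, 6 to 16 higher and 10 to 16 lower. Leaving out any 1 whole astrocyte library gave 1 higher and 0 lower members, and leaving out endfeet library 4 gave 1 higher and 2 lower. Of all genes tested, 20.7% to 21.3% were called without a whole astrocyte library and 34.4% without endfeet library 4, beside 34.6% in the main setting. Lower calls among the other early genes went from 13 of 55 tested to 20 of 55 with limma voom. With at least 10 counts in every library they were 8 of 29 tested. Over all genes the lower calls were 2006 of 14427 tested, 4485 of 14427 with voom and 1976 of 8480 with that filter. The cause was not tested. The log2 fold change of Junb turned to -0.22 with voom, -0.23 without endfeet library 6 and -0.49 without endfeet libraries 1 and 6, a setting chosen after seeing the data in which that of Egr1 turned to 0.073. That of Dusp1 turned to -0.037 with at least 10 counts, -0.18 with the series as covariate, -0.32 in series B and -0.13 without endfeet library 5. With each library left out in turn Junb ranged from -0.23 to 0.35 and Dusp1 from -0.13 to 0.26. By coding length the order per kilobase changed for 4 members of the endfeet group and 2 of the whole astrocyte group. With 2319495 counts in the smallest library, members of a few CPM there rest on single reads.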
